A study of Mus musculus with 6 samples.

Results

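The BCL2 family genes described here were 10 genes taken by symbol from the 34745 Ensembl genes of each hepatocyte library: Bcl2, Bcl2l1, Mcl1, Bax, Bak1, Bid, Bad, Bbc3, Pmaip1 and Bcl2l11. They were chosen with earlier results of these data known. All 10 were found, and all 10 had enough counts to be among the 14417 genes tested. The libraries came from primary hepatocytes of 12-week-old male mice with liver fibrosis induced by carbon tetrachloride (CCl4), 3 from FOXA2f/f mice and 3 from FOXA2H-KO mice. In FOXA2f/f mice both copies of Foxa2 are floxed, and these mice were given the virus AAV8-TBG-Control, whereas FOXA2H-KO mice have the same alleles and were given AAV8-TBG-Cre, in which the hepatocyte-specific TBG promoter drives Cre. All 6 libraries therefore share the floxed alleles, an adeno-associated virus given 2 weeks before the toxin, and CCl4 at 0.25 ml/kg injected 2 times a week for 4 weeks, with killing on day 3 after the last dose. No hepatocytes without CCl4 were analysed here. Cells were obtained by collagenase perfusion and low-speed centrifugation, which leaves some other liver cells behind. Poly-A RNA was sequenced in read pairs, and total counts ranged from 20983455 to 28327765 per library. Replicates are numbered 1, 2 and 4 in both groups, as in the labels. The labels do not say that each library is a separate mouse, so p-values measure the spread between libraries.

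BCL2 family proteins decide at the mitochondrial outer membrane whether a cell enters apoptosis. BAX and BAK1 are the effectors that open the membrane and release cytochrome c, BCL2, BCL-XL (the product of Bcl2l1) and MCL1 hold them back, and the BH3-only proteins BID, BAD, PUMA (Bbc3), NOXA (Pmaip1) and BIM (Bcl2l11) relieve that restraint or activate the effectors. In hepatocytes, BCL-XL and MCL1 are known to be needed for survival, BID carries the death receptor signal to mitochondria, and Bax, Bbc3 and Pmaip1 are classical targets of p53. Much of the control of these proteins lies in cleavage, phosphorylation, binding and turnover, which mRNA counts do not measure.

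Promoter sequence from RefSeq on GRCm38.p6 was at hand for 9 of the 10 genes, all but Pmaip1, in 15 windows of 250 bases upstream of a start site. Windows were searched on both strands for 2 forkhead strings, TGTTTAC and TGTTTGC, for the GC box GGGCGG, and for a p53 decamer. This decamer is a p53 half-site, not a full response element. TGTTTAC or its complement was in the windows of Bcl2l11 and Bbc3, where 3.54% of all 27025 genes hold it. TGTTTGC was in a window of Bcl2l1, where 4.93% of genes hold it, and the p53 decamer was in the window of Bax, where 8.20% hold it. The GC box was in 7 of the 9, against 35.4% of genes. Bcl2l1, the member whose groups separated in the counts, has 3 windows. The one shown first below lies at the annotated start of the gene and holds none of these 4 motifs. The one with TGTTTGC, at another start site within the span of the gene, is not printed. The next 3 are shown for the forkhead string in Bcl2l11 and Bbc3 and the p53 decamer in Bax. The Bbc3 window shown also lies within the span of its gene, chr7:16308393-16318205. The other windows of Bbc3 and Bcl2l11 hold no forkhead string. Each is written 5′ to 3′ on the strand of its gene and ends just before the start site, with the forkhead string or p53 decamer in capitals and GC boxes left in lower case. A match is a stretch of letters and was not tested as a binding site.
Bcl2l1 (chr2:152831729-152831978, minus strand): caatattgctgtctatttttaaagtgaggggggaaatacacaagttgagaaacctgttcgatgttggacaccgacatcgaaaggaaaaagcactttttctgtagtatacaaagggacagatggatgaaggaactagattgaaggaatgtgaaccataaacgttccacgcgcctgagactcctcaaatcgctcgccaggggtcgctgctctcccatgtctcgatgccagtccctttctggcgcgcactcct
Bcl2l11 (chr2:128125788-128126037, plus strand): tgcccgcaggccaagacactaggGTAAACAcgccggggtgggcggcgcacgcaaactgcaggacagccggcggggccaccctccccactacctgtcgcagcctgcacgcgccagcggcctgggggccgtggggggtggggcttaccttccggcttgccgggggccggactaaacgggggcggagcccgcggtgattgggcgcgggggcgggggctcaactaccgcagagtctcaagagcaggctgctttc
Bbc3 (chr7:16310011-16310260, plus strand): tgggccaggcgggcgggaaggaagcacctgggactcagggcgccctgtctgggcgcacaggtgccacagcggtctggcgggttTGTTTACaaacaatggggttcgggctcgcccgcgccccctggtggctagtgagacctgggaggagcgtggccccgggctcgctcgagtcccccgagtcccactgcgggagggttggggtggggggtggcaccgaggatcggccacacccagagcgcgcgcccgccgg
Bax (chr7:45466899-45467148, minus strand): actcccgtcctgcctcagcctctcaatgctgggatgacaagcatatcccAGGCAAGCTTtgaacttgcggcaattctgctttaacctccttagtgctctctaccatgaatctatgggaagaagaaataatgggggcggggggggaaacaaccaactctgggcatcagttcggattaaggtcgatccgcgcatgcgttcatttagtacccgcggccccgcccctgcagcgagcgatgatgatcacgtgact
The capitals begin 227 bases upstream of the start site in Bcl2l11, 167 in Bbc3 and 201 in Bax. GC content of these windows was 47.6% in Bcl2l1 and 54.0% in Bax, against 72.0% in Bcl2l11 and 72.4% in Bbc3.

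To see which regulators dominate in these hepatocytes, levels were compared between genes in the authors' FPKM, which divide counts by gene length and library total. Mcl1 was the most abundant, at a mean of 44.4 FPKM over the 6 libraries (range 33.0 to 53.3), above 95% of the genes tested. Bax followed at 18.2 FPKM (13.9 to 21.9) and Bcl2l1 at 5.26 FPKM (3.84 to 6.29). The ranges of these 3 genes did not meet each other or that of the next gene. The other 7 lay close together, in the order Bak1 at 2.01, Bid at 1.96, Bad at 1.85, Bbc3 at 1.49, Pmaip1 at 1.37, Bcl2l11 at 0.887 and Bcl2 at 0.381 mean FPKM, and each overlapped its neighbour over the libraries. Bcl2, the founding member of the family, was thus the least abundant of the 10, above 14.1% of genes tested. As shares of the summed FPKM of the 10 genes, the anti-apoptotic members made up 60.2 to 67.1%, the effectors 23.3 to 30.6% and the 5 BH3-only members 8.93 to 10.7% of the total in a library. Mcl1 alone made up 51 to 60.1%.

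**Figure D1:**
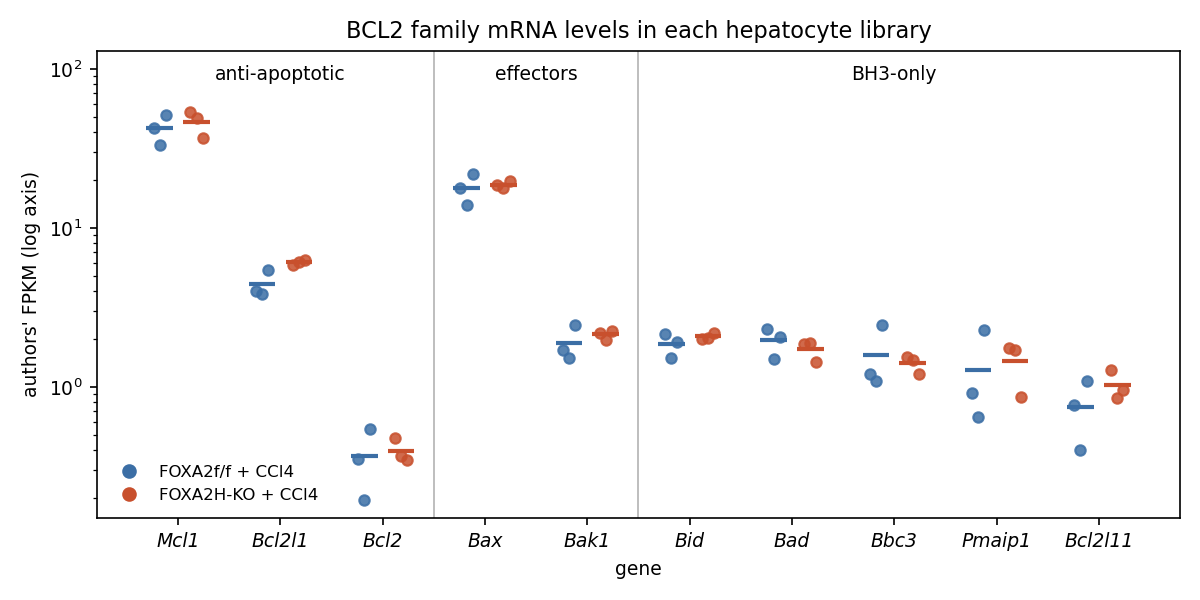
Authors' FPKM (log axis) of the 10 BCL2 family genes in each library, with 1 point per library and a bar at the mean of each group of 3. Mcl1, Bax and Bcl2l1 stand above the other 7, and the FOXA2H-KO points lie above all FOXA2f/f points in Bcl2l1 alone.

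The order of Bax and Bcl2l1 depends on the gene length. The length implied by the authors' FPKM was 869 bases for Bax and 11905 for Bcl2l1, whereas the exons of the GENCODE M21 annotation cover 1576 and 4586 bases. With counts divided by those exon lengths and by the library total Bcl2l1 came before Bax, at 13.6 against 10.1 FPKM on that length, and their ranges overlapped. Mcl1 stayed first at 52.3 and Bcl2 last at 0.417 on that scale. The shares of the total moved as well, to 70.8 to 75.3% for the anti-apoptotic members, 13.5 to 17.7% for the effectors and 10.9 to 12.8% for the BH3-only members. A difference between groups within 1 gene is not touched by the length.

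Foxa2 itself, the target of Cre, served as the check of the labels. It had 442, 246 and 516 counts in FOXA2f/f replicates 1, 2 and 4 and 28, 19 and 35 counts in FOXA2H-KO replicates 1, 2 and 4, a log2 fold change of −3.85 (edgeR adjusted p = 0.0313). It was the 1 gene called in the whole table, 0.00694% of those tested, where a call needs a Benjamini-Hochberg adjusted p under 0.05 from edgeR's quasi-likelihood test and a fold change of at least 2. The call is fragile at this size: 0 genes were called without replicate 1 or 4 of FOXA2f/f or without any 1 of the FOXA2H-KO libraries, and 6 without FOXA2f/f replicate 2.

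Of the 10 BCL2 family genes, 0 were called by edgeR and 0 by DESeq2, which called 1 and 75 genes over the whole table. Limma on FPKM called 0 of the 8 members that reached its minimum mean of 1 FPKM, and 0 of all genes. The members' edgeR adjusted p ranged from 0.893 to 0.998. In FOXA2H-KO relative to FOXA2f/f hepatocytes, 7 had a fitted log2 fold change above 0 and 3 below, with a median of 0.03, where 47.8% of all genes tested were above 0 and their median was −0.012. With library size alone or FPKM as the scale Bax also came out above 0, and these scales moved the median of all genes to 0.104 and 0.0835. At an unadjusted p under 0.05 stood 1 member, Bcl2l1, against 5.17% of all genes (1.98% higher and 3.18% lower in FOXA2H-KO). The libraries of the groups did not overlap in that same member, against 10.5% of all genes (4.54% higher and 5.96% lower), so for separation the members' share of 10% is close to the background. For the unadjusted p the same 10% is above the background share but rests on 1 gene of 10. The median size of the members' log2 fold changes was 0.09, against 0.16 over all genes.

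These intervals also show what the data leave possible. For 8 of the 10 members the 95% interval of the fold change stayed within 2-fold in both directions. The exceptions were Pmaip1 and Bcl2l11, whose upper bounds on the log2 scale were 1.10 and 1.00. The members' standard error had a median of 0.21 on the log2 scale, so a modest change could have been missed in most of them.

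**Figure D2:**
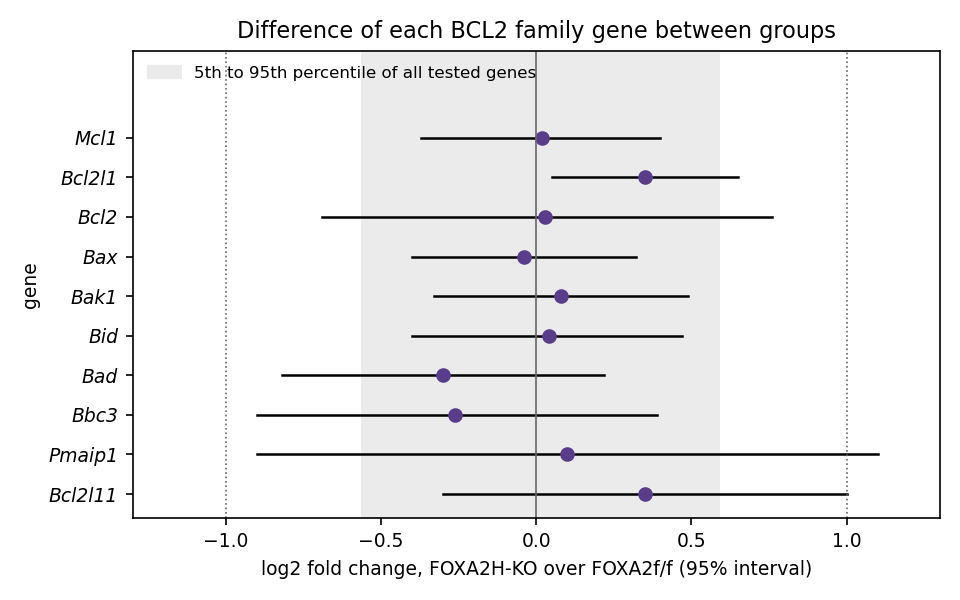
Log2 fold change of each BCL2 family gene, FOXA2H-KO over FOXA2f/f (points, edgeR) with its 95% interval (lines). The grey band spans the 5th to 95th percentile of all tested genes, −0.56 to 0.59, the dotted lines mark a 2-fold difference, and the interval of Bcl2l1, 0.05 to 0.65, is the one that does not reach 0.

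Among the anti-apoptotic genes, Bcl2l1 (ENSMUSG00000007659, chr2:152780668-152831728 on GRCm38), which encodes BCL-XL, was the member with the clearest separation. It had 52.5, 52.6 and 58.7 CPM (the count over the TMM-adjusted depth of its library) in FOXA2f/f replicates 1, 2 and 4 and 61.5, 71.4 and 75.5 CPM in FOXA2H-KO replicates 1, 2 and 4. Every FOXA2H-KO library was above every FOXA2f/f library, with means of 54.6 ± 3.51 and 69.5 ± 7.19 CPM (SD, n = 3 each). Its log2 fold change was 0.35 (standard error 0.13, 95% interval 0.05 to 0.65), a 1.27-fold difference that did not pass correction over all genes (edgeR unadjusted p = 0.0282, adjusted p = 0.893). The exact two-sided permutation test gave p = 0.1, the smallest that 3 libraries against 3 allow. With 1 library left out the log2 fold change lay between 0.29 and 0.43, and over the 13 alternatives the adjusted p ranged from 0.241 to 1.

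The cholangiocyte markers leaned higher and the neutrophil markers lower in FOXA2H-KO, but the sums of both lists overlapped between the groups. All 6 cholangiocyte markers had a log2 fold change above 0 in FOXA2H-KO (median 0.82), 2 of them with an unadjusted p under 0.05 from edgeR and 2 without overlap. Over all genes tested these shares were 5.17% and 10.5%. The cholangiocyte sums were 368, 174 and 231 CPM in FOXA2f/f and 708, 252 and 588 CPM in FOXA2H-KO replicates 1, 2 and 4. Most of each sum was Spp1 alone, at 353, 164 and 222 CPM in FOXA2f/f and 687, 241 and 573 CPM in FOXA2H-KO. Of the 8 neutrophil markers 7 were tested, 5 of them below 0 (median of the 7, −1.94) and 4 with an unadjusted p under 0.05 from edgeR. The neutrophil sums were 99.8, 11 and 70.6 CPM in FOXA2f/f and 28.1, 31.1 and 20.4 CPM in FOXA2H-KO, with FOXA2f/f replicate 2 the lowest library. The smallest edgeR adjusted p among these markers was 0.65, and their part in the Bcl2l1 values was not tested. Summed hepatocyte markers spanned 109000 to 152000 CPM in FOXA2f/f and 104000 to 136000 CPM in FOXA2H-KO, overlapping between the groups.

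Mcl1 (ENSMUSG00000038612, chr3:95658788-95663176), whose short-lived protein restrains BAK1, had 189, 153 and 187 CPM in FOXA2f/f and 191, 196 and 149 CPM in FOXA2H-KO replicates 1, 2 and 4. The groups overlapped, with the lowest and the highest library both in FOXA2H-KO. This gave a log2 fold change of 0.02 (standard error 0.17, 95% interval −0.37 to 0.40, edgeR adjusted p = 0.998). Mcl1 had the most counts of the members, 2789 to 5888 per library, and was bounded to within 1.32-fold upward and 0.774-fold downward.

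Bcl2 (ENSMUSG00000057329, chr1:106538178-106714274), the anti-apoptotic gene that names the family, had 3.91, 2.25 and 4.93 CPM in FOXA2f/f and 4.27, 3.61 and 3.51 CPM in FOXA2H-KO replicates 1, 2 and 4. The FOXA2f/f libraries held both the lowest and the highest value, so the groups overlapped throughout. The log2 fold change was 0.03 (standard error 0.31, 95% interval −0.69 to 0.76, edgeR adjusted p = 0.998). It was −0.22 without FOXA2f/f replicate 2 and 0.29 without FOXA2f/f replicate 4. Of its exon bases, 6.09% also lie in the antisense gene D630008O14Rik, which had 0 counts in all libraries.

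Of the effectors, Bax (ENSMUSG00000003873, chr7:45461697-45466898), which moves from the cytosol to mitochondria when activated, was the one whose protein the study took as a readout of apoptosis in whole liver. Its mRNA in hepatocytes was 16.9, 13.9 and 17.1 CPM in FOXA2f/f and 14.3, 15.1 and 17.3 CPM in FOXA2H-KO replicates 1, 2 and 4. The groups overlapped, and their means of 16.0 ± 1.78 and 15.6 ± 1.5 CPM (SD, n = 3 each) differed by less than 1 SD of either group. Its log2 fold change was −0.04 (standard error 0.15, 95% interval −0.40 to 0.32, edgeR adjusted p = 0.993), which bounds a rise to 1.25-fold and a fall to 0.759-fold. The sign followed the scale, at 0.06 with library size alone and 0.08 with limma on FPKM.

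Bak1 (ENSMUSG00000057789, chr17:27019810-27029009), the effector that resides in the mitochondrial membrane, had 8.20, 7.68 and 9.69 CPM in FOXA2f/f and 8.53, 8.54 and 9.99 CPM in FOXA2H-KO replicates 1, 2 and 4. The ranges overlapped over most of their length, and replicate 4 was the highest library within each group. This gave a log2 fold change of 0.08 (standard error 0.18, 95% interval −0.33 to 0.49, edgeR adjusted p = 0.992). Exons of Bak1 share 25.5% of their bases with Ggnbp1 on the other strand, where a kit that does not mark strand cannot tell the genes apart. Those of Bax share 12.2% with Gm45808 on the same strand.

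The balance of effectors and their inhibitors was also read as a ratio within a library, which no scaling between libraries can move. The ratio of Bax to Bcl2l1 in FPKM was 4.40, 3.62 and 4.00 in FOXA2f/f and 3.19, 2.90 and 3.13 in FOXA2H-KO replicates 1, 2 and 4. All FOXA2H-KO libraries were lower, with means of 4.01 ± 0.389 and 3.07 ± 0.154 (SD, n = 3 each), 0.767 times the FOXA2f/f value. On exon lengths of GENCODE M21 the same ratio was 0.852 ± 0.0826 and 0.653 ± 0.0328, so its size, but not the difference between groups, depends on the length. The ratio is built from the Bcl2l1 values above and adds no independent evidence.

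**Figure D3:**
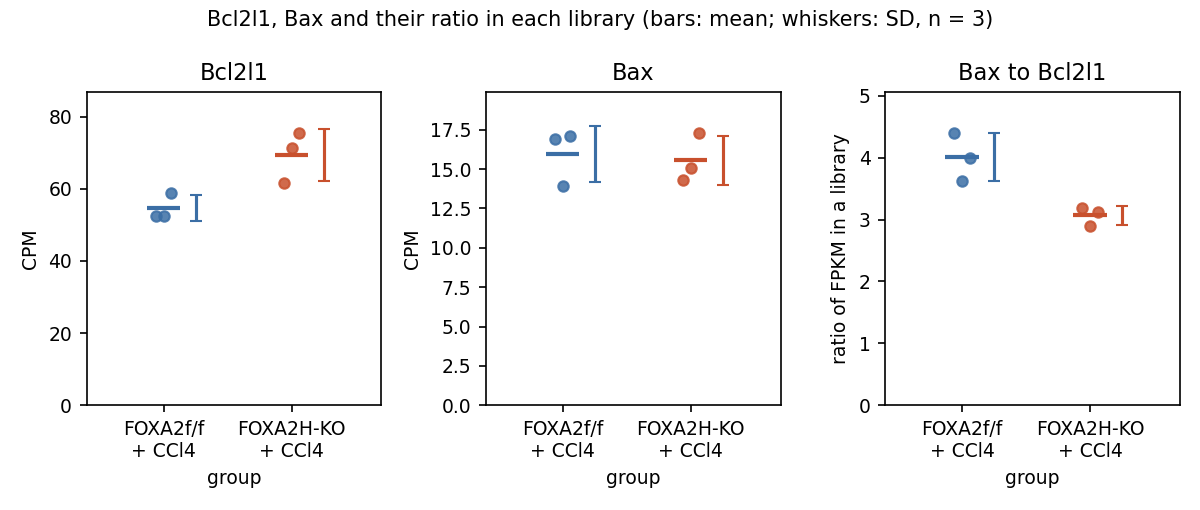
CPM of Bcl2l1 and of Bax and the ratio of their FPKM in each library, with 1 point per library, bars at the group mean and whiskers of 1 SD (n = 3). Bcl2l1 lies between 61.5 and 75.5 CPM in FOXA2H-KO, above all FOXA2f/f libraries, Bax overlaps, and the ratio lies between 2.90 and 3.19 in FOXA2H-KO, below all FOXA2f/f libraries.

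The other 3 ratios overlapped between the groups. Bax to Bcl2 was 49.9, 71.5 and 40.1 in FOXA2f/f and 38.8, 48.4 and 56.7 in FOXA2H-KO replicates 1, 2 and 4. Bax to Mcl1 was nearly constant in FOXA2f/f, at 0.415, 0.422 and 0.424, and spread to both sides in FOXA2H-KO, at 0.348, 0.358 and 0.538. Bak1 to Mcl1 averaged 0.0444 ± 0.00404 and 0.0475 ± 0.0122 (SD, n = 3 each). With GENCODE M21 exon lengths the mean over the 6 libraries went from 50.9 to 25.6 for Bax to Bcl2, from 0.418 to 0.195 for Bax to Mcl1 and from 0.046 to 0.0712 for Bak1 to Mcl1, while the ratio between groups stayed as it was. In both ratios to Mcl1, FOXA2H-KO replicate 4 was the highest library. Its Mcl1 was the lowest of the 6 in CPM, at 149. In FPKM, the scale of the ratios, FOXA2f/f replicate 2 was lower, at 33.0 against 36.6.

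Among the BH3-only genes, Bcl2l11 (ENSMUSG00000027381, chr2:128126038-128162547), which encodes BIM, had 13.1, 7.13 and 15.2 CPM in FOXA2f/f and 17.5, 13 and 14.8 CPM in FOXA2H-KO replicates 1, 2 and 4. The groups overlapped, with FOXA2f/f replicate 2 far below the other 5 libraries. The log2 fold change was 0.35 (standard error 0.28, 95% interval −0.30 to 1.00, edgeR adjusted p = 0.983), the same size as that of Bcl2l1 with a larger standard error. It fell to 0.10 without FOXA2f/f replicate 2 and rose to 0.58 without FOXA2f/f replicate 4, so its size depended on both of these libraries.

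Bbc3 (ENSMUSG00000002083, chr7:16308393-16318205), which encodes PUMA and responds to p53 and to endoplasmic reticulum stress, had 3.82, 3.62 and 6.39 CPM in FOXA2f/f and 3.94, 4.17 and 3.51 CPM in FOXA2H-KO replicates 1, 2 and 4. All but FOXA2f/f replicate 4 lay within a narrow band. Its log2 fold change was −0.26 (standard error 0.28, 95% interval −0.90 to 0.39, edgeR adjusted p = 0.983), and without that replicate it was 0.06.

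Pmaip1 (ENSMUSG00000024521, chr18:66458533-66465565), which encodes NOXA, the BH3-only partner of MCL1, was the member with the largest standard error. It had 2.66, 1.97 and 5.47 CPM in FOXA2f/f and 4.16, 4.45 and 2.31 CPM in FOXA2H-KO replicates 1, 2 and 4. High and low libraries occurred in both groups, which overlapped fully. This gave a log2 fold change of 0.10 (standard error 0.43, 95% interval −0.90 to 1.10, edgeR adjusted p = 0.993). It was −0.16 without FOXA2f/f replicate 2 and 0.65 without FOXA2f/f replicate 4, and its counts were low, at 36 in the lowest library.

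Bid (ENSMUSG00000004446, chr6:120891930-120916853), which is cleaved by caspase 8, had 12.9, 9.49 and 9.44 CPM in FOXA2f/f and 9.78, 10.9 and 11.9 CPM in FOXA2H-KO replicates 1, 2 and 4. FOXA2f/f replicate 1 was the highest of the 6 and the groups overlapped. The log2 fold change was 0.04 (standard error 0.19, 95% interval −0.40 to 0.47, edgeR adjusted p = 0.996). Its exons share 17.7% of their bases with Bcl2l13 on the other strand.

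Bad (ENSMUSG00000024959, chr19:6941861-6951899), which survival signals inactivate by phosphorylation, had 9.15, 6.20 and 6.61 CPM in FOXA2f/f and 5.96, 6.70 and 5.18 CPM in FOXA2H-KO replicates 1, 2 and 4. The groups overlapped in 1 library, FOXA2H-KO replicate 2. Its log2 fold change was −0.30 (standard error 0.22, 95% interval −0.82 to 0.22, edgeR adjusted p = 0.983), and −0.09 without FOXA2f/f replicate 1. Its exons share 20.5% of their bases with Gpr137 on the other strand.

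Extreme values of the members came from libraries of both groups. FOXA2f/f replicate 2 was the lowest of the 6 libraries in 5 members and FOXA2f/f replicate 4 the highest in 3. Both held for Bcl2 and Pmaip1 alone. FOXA2H-KO replicate 4 was the lowest in Mcl1, Bbc3 and Bad and the highest in Bcl2l1, Bax and Bak1. The 8 macrophage markers summed to 1130, 517 and 2460 CPM in FOXA2f/f and 1870, 1700 and 1130 CPM in FOXA2H-KO replicates 1, 2 and 4. FOXA2f/f replicates 2 and 4 were the extremes of this list. They were also the extremes of the 8 endothelial markers (202 and 709 CPM), the 8 stellate and fibroblast markers (1040 and 2620 CPM), the 8 lymphocyte markers (19.1 and 81.6 CPM) and the 14 immediate early genes (337 and 972 CPM). FOXA2f/f replicate 2 was the lowest in the 8 neutrophil and the 6 cholangiocyte markers too, at 11 and 174 CPM, where FOXA2f/f replicate 1 at 99.8 CPM and FOXA2H-KO replicate 1 at 708 CPM were the highest. No gene of these lists was at 0 in all libraries. In the 8 hepatocyte markers FOXA2f/f replicate 2 was the highest library. The part of other liver cells in the members' values was not tested, and in bulk RNA fewer cells of a type and less RNA per cell cannot be told apart.

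**Figure D4:**
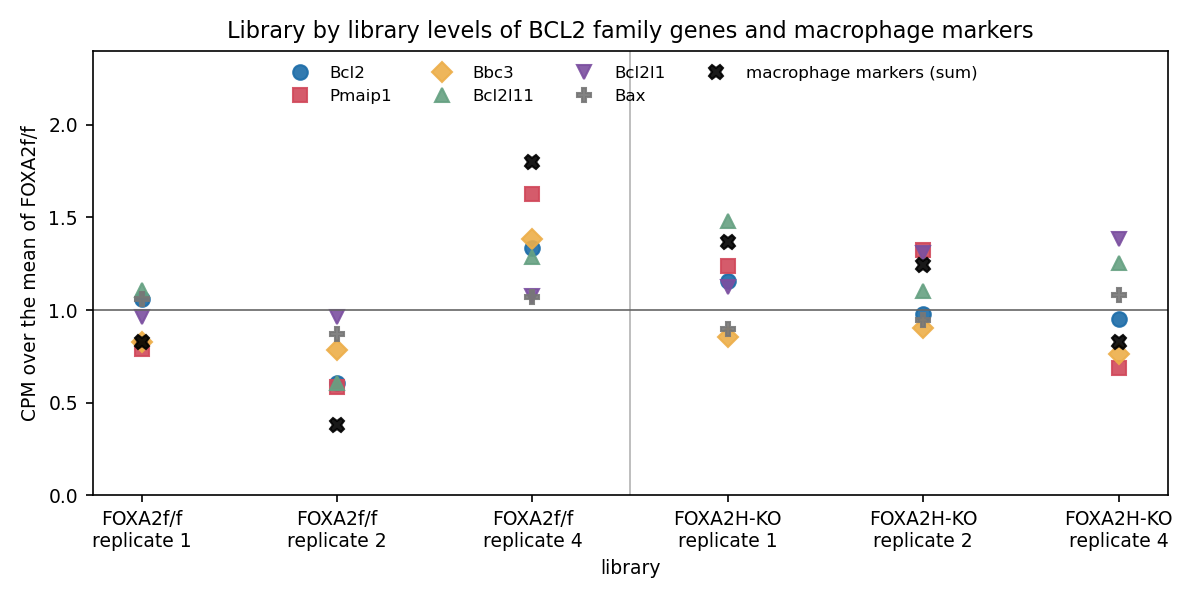
CPM of 6 BCL2 family genes and summed CPM of 8 macrophage markers in each library, divided by the mean of the 3 FOXA2f/f libraries. Bcl2, Pmaip1 and the macrophage sum are lowest in FOXA2f/f replicate 2 and highest in FOXA2f/f replicate 4, whereas Bax and Bcl2l1 vary less over the FOXA2f/f libraries. Mcl1, Bak1, Bid and Bad are not plotted. Of these, Bak1 was lowest in FOXA2f/f replicate 2, Mcl1 and Bad in FOXA2H-KO replicate 4 and Bid in FOXA2f/f replicate 4. None of them was highest in FOXA2f/f replicate 4.

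Genes around the family were counted in lists of further BCL2 family genes, caspases and mitochondrial factors, the death receptor pathway, regulators of the family, p53 targets and immediate early genes. Together these held 89 genes, of which 83 were tested. As among the members, 0 were called by edgeR and 0 by DESeq2, which called 1 and 75 genes over the whole table. Limma on FPKM, which leaves out genes under a mean of 1 FPKM, called 0 of them and 0 of all genes. In edgeR 2 of the 83 reached an unadjusted p under 0.05, or 2.41% against 5.17% of all genes. The groups did not overlap in 8, or 9.64% against 10.5%, with 5 higher and 3 lower. The genes with p under 0.05 were Tnfrsf1a, the TNF receptor that signals cell death or survival, and Phlda3, a p53 target that inhibits AKT.

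Tnfrsf1a had 117, 98.1 and 102 CPM in FOXA2f/f and 84.2, 93.2 and 76.6 CPM in FOXA2H-KO replicates 1, 2 and 4, a log2 fold change of −0.32 (standard error 0.14, edgeR unadjusted p = 0.0487, adjusted p = 0.941). Phlda3 had 11.3, 12.7 and 11.7 CPM in FOXA2f/f and 9.75, 7.74 and 7.86 CPM in FOXA2H-KO, a log2 fold change of −0.49 (standard error 0.17, edgeR unadjusted p = 0.0199, adjusted p = 0.836). In both, all FOXA2H-KO libraries were lower, and neither passed correction.

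Of the 15 further BCL2 family genes, 10 were tested, 4 with a fold change above 0 and 6 below. Bcl2l10 had 0 counts in all 6 libraries. The most abundant were Bnip3 and Bnip3l, mitophagy receptors with a BH3-like stretch, at means of 49.0 and 18.4 FPKM. Bnip3 had 153, 117 and 101 CPM in FOXA2f/f and 128, 178 and 253 CPM in FOXA2H-KO replicates 1, 2 and 4, overlapping (log2 fold change 0.59, standard error 0.27, edgeR adjusted p = 0.941). Bnip3l had 85.8, 89.5 and 79.2 CPM in FOXA2f/f and 90.5, 106 and 114 CPM in FOXA2H-KO, apart in all libraries but within the same adjusted p of 0.941 (log2 fold change 0.29, standard error 0.14, edgeR).

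Downstream of the effectors, 20 of 20 genes of the caspase and mitochondrial list were tested, 8 above and 12 below 0, and 0 reached an unadjusted p under 0.05. Its most abundant genes were the mitochondrial channels Vdac3, with a log2 fold change of −0.06, and Vdac1, with −0.10. In the death receptor list 12 of 13 were tested, and Casp8, the caspase that cleaves BID, had 36.8 ± 4.63 CPM in FOXA2f/f and 40.7 ± 9.05 CPM in FOXA2H-KO (SD, n = 3 each). These groups overlapped.

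Of 17 regulators, 8 were above and 9 below 0 and 0 reached an unadjusted p under 0.05. Atf4, a transcription factor of the integrated stress response, had 64.1 ± 13 CPM in FOXA2f/f and 49.8 ± 5.25 CPM in FOXA2H-KO (SD, n = 3 each, edgeR unadjusted p = 0.075), and Ywhab, a 14-3-3 protein of the kind that binds phosphorylated BAD, had 89.5 ± 3.86 and 97.2 ± 4.54 CPM. Of the 12 p53 targets outside the family, 7 were above and 5 below 0. The most abundant, Trp53inp1 and Ccng1, had log2 fold changes of 0.28 and 0.15 (edgeR unadjusted p = 0.108 and 0.379). Among the 14 immediate early genes, 9 were above and 5 below 0 with 0 at an unadjusted p under 0.05, and Zfp36 and Junb, the most abundant, had log2 fold changes of 0.01 and −0.24.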

How the data were processed

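Per the labels and the study's methods, poly-A RNA of primary hepatocytes was made into paired-end TruSeq libraries, 3 per group. For each of 34745 genes the authors deposited a raw count of fragments and an FPKM value. The submitters' processing notes name CASAVA 1.8, TopHat2 2.1.0, HTSeq, edgeR and the build mm10. Counting settings, the annotation release and how FPKM was calculated are not given in the sources used here. The third library of each group is numbered 4 in the labels and 3 in the file headers, and was joined by the recorded sample. Symbols were matched for 34267 genes.

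Starting from the counts, edgeR 4.0.16 (R 4.3.3) was run with TMM scaling (factors 0.87 to 1.12), filterByExpr (14417 genes kept), the quasi-likelihood test without a block, and Benjamini-Hochberg adjustment over all genes kept. The common biological coefficient of variation was 25.27%. A standard error is the log2 fold change over the square root of F, and intervals cover 95%. A call needed an adjusted p under 0.05 and a 2-fold change, the limits the study states. At these limits the study reports many more differing genes than were called here, and the reason was not tested. The deposited FPKM served for levels between genes and ratios within a library. Exact permutation tests were two-sided. Alternatives were DESeq2 1.42.0, limma-trend (limma 3.58.1, pseudocount 1, log2 scale) on deposited FPKM where the mean reached 1, other scalings, count filters, thresholds, a replicate block, and each library left out in turn. The fits were tested on simulated data.

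Positions, exon lengths and overlaps came from GENCODE M21 on GRCm38, and promoter windows from RefSeq. No protein sequences were compared. The members and lists were chosen with earlier results of these data known. Named genes are Foxa2, the 10 members, and from each other list the 2 with the highest mean FPKM and up to 5 with an unadjusted p under 0.05. Bcl2l10 and Spp1 were named after their values were seen. Marker lists are given as sums, and the cholangiocyte and neutrophil lists also as medians and counts of genes. No 2 replicates were near-identical (chi-square of their counts at least 35.9 times its degrees of freedom).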

Additional observations from a re-analysis of the deposited data

How the results depend on the processing

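BCL2 family members called stayed at 0 in every alternative, where limma on FPKM tested 8 of the 10. Over all genes the count was 1, and it moved to 75 with DESeq2 (27 higher, 48 lower), 2 with no filter beyond 1 count, 254 at an unadjusted p with the 2-fold limit, and 0 with library size alone or limma on FPKM. With 1 library left out it ranged from 0 to 6, the 6 without FOXA2f/f replicate 2. The replicate block gave 0 calls. Same-numbered libraries did not deviate together (correlations of −0.0688, 0.0262 and −0.226), so the numbers are not taken as pairs. Members with groups that do not overlap numbered 1 to 2 with 1 library left out, where fewer libraries separate more easily. The share over all genes was not calculated for these settings, and the 10.5% above is for all 6 libraries. The members' counts therefore have no background there. Beside Bcl2l1, the members apart were Bid without FOXA2f/f replicate 1, Bak1 without FOXA2f/f replicate 4, Bad without FOXA2H-KO replicate 2 and Mcl1 without FOXA2H-KO replicate 4. Of 128 alternative log2 fold changes of members, 18 reversed in sign, none of them called, and the cause was not tested. With all libraries this was Bax alone, at 0.063 with library size alone and 0.082 with limma on FPKM. With 1 library left out, those that reversed ranged from −0.22 to 0.29 in Bcl2, −0.073 to 0.14 in Mcl1, −0.13 to 0.017 in Bax, −0.40 to 0.058 in Bbc3, −0.16 to 0.65 in Pmaip1 and −0.043 to 0.22 in Bid. The unadjusted p of Bcl2l1 was between 0.0196 and 0.0987, under 0.05 in 8 of 13 alternatives. Limma on FPKM left out Bcl2 and Bcl2l11, which were below its minimum. All 4 ratios moved with the exon length. Pmaip1 had 36 to 172 counts per library and the largest standard error of the members, 0.43.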
